A study of Saccharomyces cerevisiae with 24 samples.

Results

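The mitochondrial ribosomal protein genes of Saccharomyces cerevisiae were followed in 8 strains adapted for tolerance to hydrolysate, a liquor of sugars and growth inhibitors released from plant biomass. The genes were taken by symbol, as every gene in the probe annotation called MRP, MRPL, MRPS or RSM with a number directly after it. This gave 57 of the 4069 genes measured, with 33 in the large subunit of the ribosome, 23 in the small subunit and MRP8 in neither. Each gene had 2 probes and a value on all 24 arrays. A further 10 genes of the current yeast catalogue have such a name and were not analysed here.

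Total RNA from liquid cultures of each adapted mutant was hybridised on 2-colour arrays against RNA of a reference strain named in the labels after its fluorescent protein. The partner of PY-231 was reference YFP. Reference GFP was used for PG-353, PG-259 and PG-132, and reference DsRed for M1, PR-438, PR-164 and PR-338. Each mutant had 3 arrays, 1 on each of 3 slides, and the 3 sets are biological replicas by the submitters' design text. The growth protocol names minimal medium without glucose and hydrolysate at 1 g/mL, and leaves unsaid if they were combined. The mutants' mutations, and whether each strain is a single clone, are not given in the sources used here.

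Mitochondria carry their own ribosomes, which in yeast make a small set of hydrophobic subunits of the respiratory chain and the ATP synthase from mitochondrial mRNAs. Nearly all proteins of these ribosomes are encoded in the nucleus, made in the cytosol and imported. Many descend from bacterial ribosomal proteins, while others were added to the ribosome in mitochondria. In yeast their genes are known to respond to the carbon source, and many of their mRNAs are bound by the RNA-binding protein Puf3.

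The values are log2 ratios of mutant over reference, centred on each array's median, so that 0 is the level of a typical gene on that array. Cy5 marked the mutant on slides 1 and 3, and slide 2 had the dyes swapped. That slide 2 was also deposited as mutant over reference is likely but not stated, and results that turn with it are marked. In M1 the mating genes MFA2, STE2 and STE3 read 6.76, 3.92 and -6.13 on slide 2, and 6.26, 4.29 and -5.71 on slide 3. Their signs on these slides were thus the same with the dyes swapped. On slide 1 they read 0.07, -0.245 and 0.56. On each array 112 to 114 of the 114 probes of the 57 genes gave a value. PY-231 replicate 1 carried no gene signal, since the probes of a gene correlated at -0.01 there against 0.28 to 0.93 on the other 23 arrays. M1 replicate 1 stood apart from the other arrays of M1 in the a-factor gene MFA2, at 0.07 against 6.76 and 6.26. The 130 cytosolic ribosomal protein genes, much brighter spots with a median at the 94.5th percentile of brightness, ran from -3.07 to -1.47 on slide 2 and from -0.61 to 2.10 on the other slides as array medians. The part of these differences between slides in the results below was not tested.

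The genes of the mitochondrial ribosome moved little in any single mutant. None of the 57 genes passed an adjusted p of 0.05 in any of the 8 mutants by limma, where 0 to 21 of all 4069 genes did. The percentage of all genes called was 0 in PY-231, 0.295 in PR-438, 0.123 in PR-338, 0.0492 in PG-259, 0.0246 in PG-353, 0.221 in PG-132, 0.516 in PR-164 and 0.246 in M1. At an unadjusted p under 0.05 there were 8 of the 57 genes in PG-353 (6.34% of all genes), 6 in M1 (14.4%), 5 in PR-438 (13.2%), 3 in PG-259 (8.72%), 2 in PY-231 (2.53%), 2 in PG-132 (12.9%), 2 in PR-164 (10.6%) and 1 in PR-338 (10.7%). The 8 in PG-353 were all above 0 (2.33% of all genes in that direction) and the 6 in M1 all below (10.3%). With slide as a replicate block, 1 of the 57 genes was called in M1, which was MRP4, beside 0.516% of all genes. Such a block takes what the arrays of a slide share out of the error. Its p-values thus leave out the spread between the 3 slides, here and below.

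**Figure D1:**
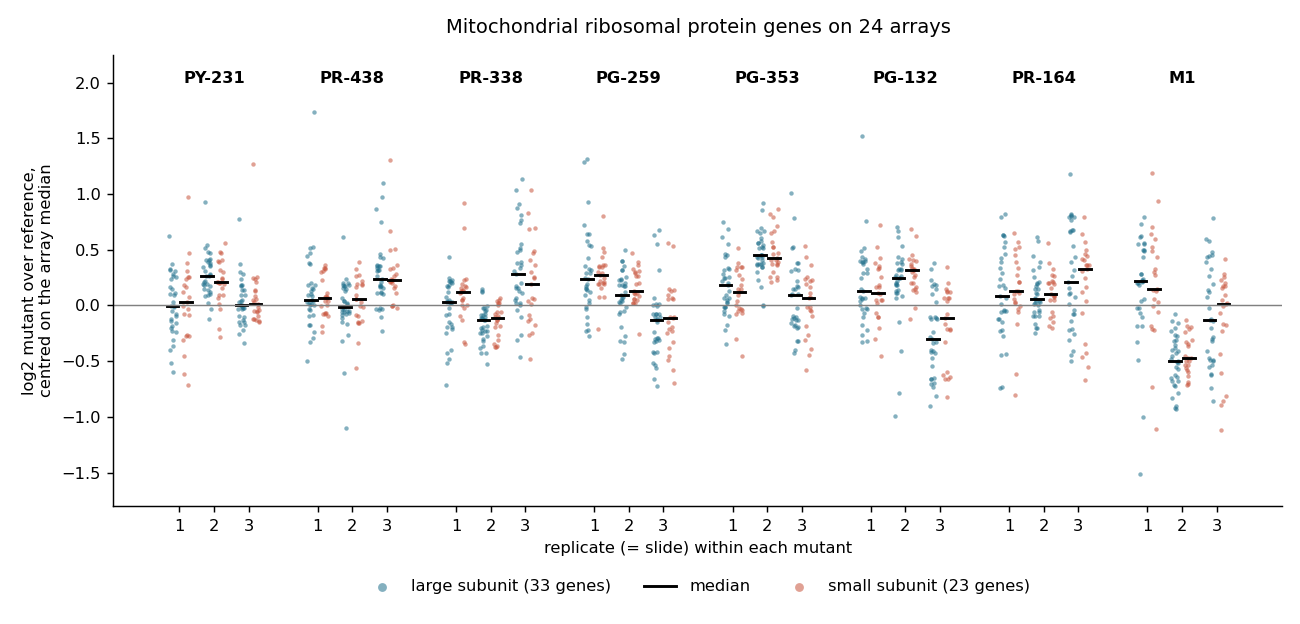
Each point is the log2 ratio of mutant over reference, centred on the array median, of 1 gene on 1 array, with the 33 large-subunit genes in blue, the 23 small-subunit genes in red and black bars for their medians. The medians of both subunits lie together on each array, highest on PG-353 replicate 2 at 0.45 and 0.43 and lowest on M1 replicate 2 at -0.50 and -0.48.

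The median of the fitted ratios was above 0 for both subunits in 7 mutants and below 0 in M1, and the sign changed in PY-231, PG-353, PG-132 and M1, and for the small subunit in PG-259 (-0.047), when slide 2 was turned. For the large subunit it was 0.07 in PY-231, 0.10 in PR-438, 0.02 in PR-338, 0.06 in PG-259, 0.21 in PG-353, 0.04 in PG-132, 0.12 in PR-164 and -0.17 in M1. For the small subunit the medians were 0.07, 0.15, 0.03, 0.12, 0.19, 0.12, 0.17 and -0.06 in the same order of mutants. The median of all genes lay between -0.05 and 0.02 in each. PG-353 and M1 thus held the ends of the range. With 1 replicate left out the large-subunit median was below 0 in PY-231 (-0.015 without replicate 2), PR-338 (-0.10 without replicate 3), PG-259 (-0.029 without replicate 1) and PG-132 (-0.031 without replicate 1 and -0.069 without replicate 2), and the small-subunit median was in PR-338 (-0.062 without replicate 3). PG-353 had 30 of 33 large-subunit and 19 of 23 small-subunit genes above 0, against 45.3% of all genes, while M1 had 10 of 33 and 5 of 23 above 0, against 46.4%.

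In PG-353 the medians of the large and small subunit were 0.19 and 0.12 on replicate 1, 0.45 and 0.43 on replicate 2, and 0.10 and 0.06 on replicate 3. All 3 arrays were thus above 0, and replicate 2 was the highest, with 55 of 56 genes above 0. Over the 3 arrays the mean of the large-subunit median was 0.24 ± 0.18 (SD, n = 3). In PG-353, 25 of the 56 genes were above 0 on all 3 arrays, or 44.6%, where 14.4% of all genes were. On replicates 1 and 3 alone, the same 44.6% of the 56 genes were above 0 on both, against 33.8% of all genes, and without replicate 2 the fitted medians were 0.11 and 0.15. With the sign of slide 2 turned they were -0.07 and -0.15.

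In M1 the medians were 0.22 and 0.15 on replicate 1, -0.50 and -0.48 on replicate 2, and -0.13 and 0.02 on replicate 3. The arrays of M1 differed in direction, and none of the 56 genes was above 0 on replicate 2. The mean of the large-subunit median was -0.14 ± 0.36 (SD, n = 3), so its distance from 0 was smaller than the spread between arrays. No gene was above 0 on all 3 arrays of M1, where 12.1% of all genes were, and 15 of the 56, or 26.8%, were below 0 on all 3 against 10.5% of all genes. Replicate 2, with no gene above 0, fixed the first of these counts. On replicates 1 and 3 alone, 42.9% of the 56 genes were above 0 on both, against 33.0% of all genes. Below 0 on both were 26.8%, against 31.1% of all genes, so the excess below 0 rests on replicate 2. Without M1 replicate 1 the fitted medians were -0.24 and -0.25, and with the sign of slide 2 turned they were 0.20 and 0.20. Without replicate 2 they were -0.053 and 0.12, so the direction of the small subunit in M1 rests on that slide.

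The other mutants lay between. The share of the 56 genes above 0 on all 3 arrays was 33.9% in PR-164 (10.1% of all genes), 28.6% in PR-438 (20.7%), 26.8% in PG-132 (11.7%), 25% in PG-259 (10.5%), 19.6% in PY-231 (10.9%) and 5.36% in PR-338 (14.5%). PR-164 was the one of these with both subunit medians above 0 on every array, from 0.06 to 0.32. PG-132 and PG-259 had positive medians on replicates 1 and 2 and negative ones on replicate 3. PR-338 was negative on replicate 2 alone, with medians of -0.13 and -0.11. With replicates 1 and 3 alone, 50% of the 56 genes were above 0 on both in PR-338, against 31.27% of all genes. The shares were 57.14% in PR-164 (31.35%), 62.5% in PR-438 (34.46%), 26.79% in PG-132 (29.17%), 28.57% in PG-259 (25.6%) and 23.21% in PY-231 (26.03%). The excess in PG-132 and PY-231, most of that in PG-259 and the low share in PR-338 thus rest on replicate 2.

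Large and small subunit moved together. Their medians had the same sign on 21 of 24 arrays, and the large-subunit median minus the small-subunit median ran from -0.19 to 0.09 with a median of -0.02. The large-subunit median was the lower of the pair on 16 of 24 arrays. The genes were also closer to each other than genes at large. Their SD within an array ran from 0.15 to 0.49, and it was below the SD of all genes, 0.32 to 0.99, on 23 of 24 arrays, the exception being PY-231 replicate 1 at 0.3182 against 0.3176. On slide 2, where all genes spread the widest, with SDs from 0.54 to 0.99, the SD of these genes was 0.15 to 0.30. After a loess on brightness slide 2 was no longer the widest. Its SDs were then 0.42 to 0.62 for all genes and 0.23 to 0.41 for these genes, and slide 3 reached 0.67 for all genes. The SD of these genes was still below that of all genes on 23 of 24 arrays. Of these genes 1 lay below the 25th percentile of brightness and 1 above the 90th, while all genes fill both ranges. Genes of like brightness were not compared, so the smaller SD is not shown to be particular to these genes.

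**Figure D2:**
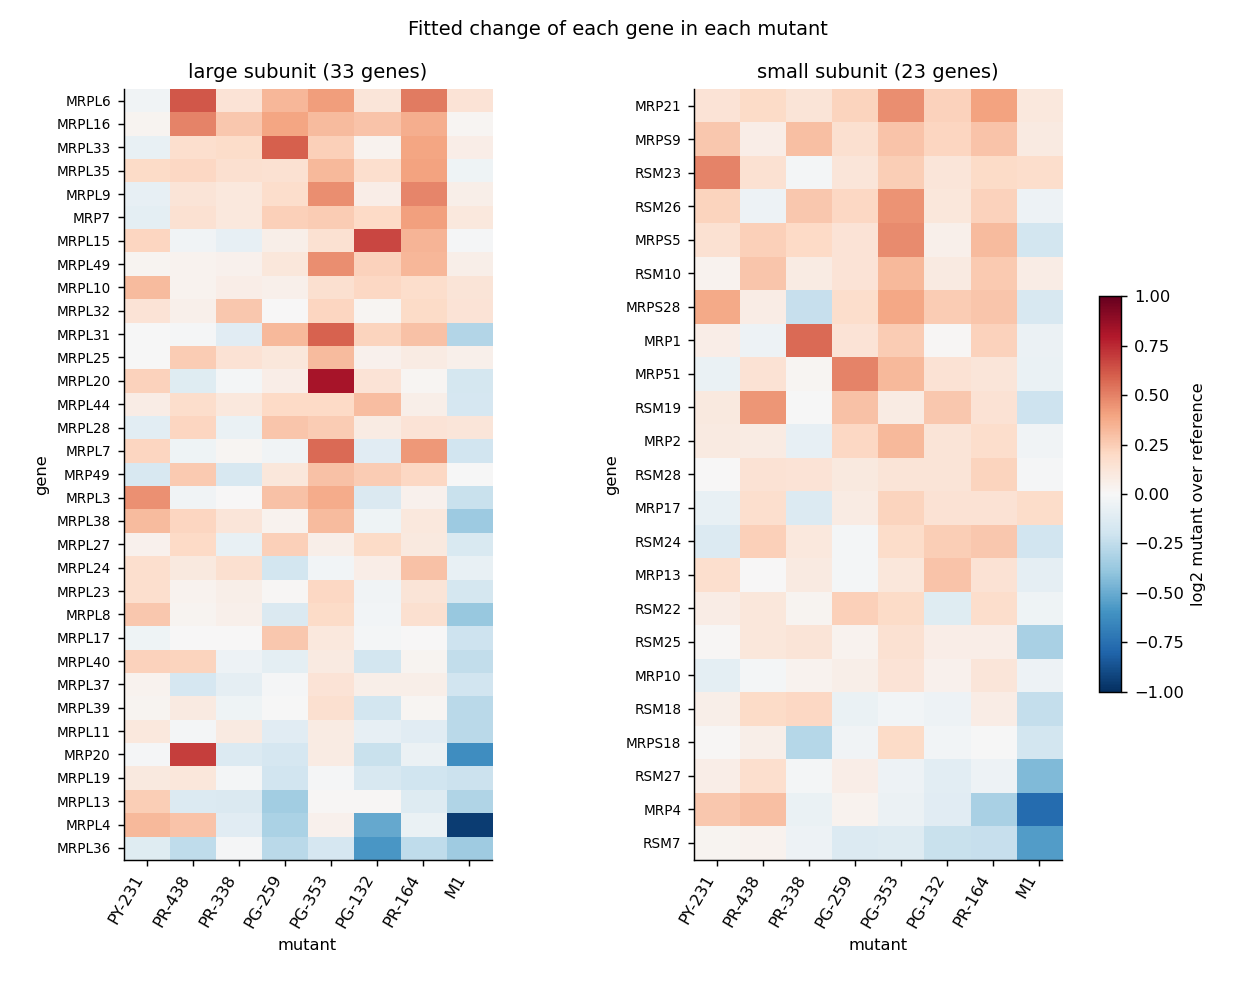
Colours show the fitted log2 ratio of mutant over reference for each large-subunit and small-subunit gene in each mutant, with genes sorted by their mean over the 8 mutants. The PG-353 column is mostly red, with MRPL20 the highest at 0.82, and the M1 column is mostly blue, with MRPL4 at -0.95 and MRP4 at -0.77.

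Across the 8 mutants the shift was small and upward for most genes. In the mean of the 8 mutants, 25 of 33 large-subunit and 19 of 23 small-subunit genes were above 0, with medians of 0.10 and 0.11, against 50.7% and a median of 0.00 for all genes. With the sign of slide 2 turned these medians were 0.011 and 0.022. Of the 57 genes 1 was called, MRPL16, where 13.3% of all genes were called, 84 of them higher (2.06%) and 456 lower (11.2%). At an unadjusted p under 0.05 there were 14 genes higher (10.3% of all genes) and 2 lower (19.6%), or 16 in all (30%). With slide as a replicate block 11 genes were called, 10 of them higher, beside 21.4% of all genes, and without replicate 2 there were 15, beside 29.1%.

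MRPL16, the counterpart of bacterial L16, which sits near the peptidyl transferase centre, rose by 0.27 ± 0.07 (SE, 24 arrays, adjusted p = 0.00826). Its values on replicates 1, 2 and 3 were 0.38, 0.20 and 1.10 in PR-438, 0.21, -0.09 and 0.88 in PR-338, 0.57, -0.10 and 0.80 in PR-164, and 0.22, -0.45 and 0.48 in M1. They were 0.64, 0.40 and 0.31 in PG-259, 0.32, 0.44 and 0.38 in PG-353, 0.42, 0.39 and 0.23 in PG-132, and 0.11, -0.03 and 0.18 in PY-231. The gene was above 0 on 20 of 24 arrays, and the 4 arrays below 0 were all on slide 2. In the mutants with the GFP reference all 9 values were above 0. MRPL16 also passed with a replicate block (0.33 ± 0.06, adjusted p = 0.00187) and under each other setting tried, with an adjusted p of 0.00187 to 0.0458. Arrays of 1 slide deviated together, and the means of MRPL16 over the 8 arrays of slides 1, 2 and 3 were 0.36, 0.09 and 0.55. With slide as a random block its SE was 0.08 and its adjusted p 0.0408, beside 7.15% of all genes called. The error does not hold the whole spread between slides, of which there are 3. Its spots stood at the 33rd percentile of brightness.

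The next highest large-subunit genes did not pass. MRPL6, the counterpart of L6, had 0.28 ± 0.10 (adjusted p = 0.077) and MRPL33, the counterpart of L30, had 0.20 ± 0.08 (adjusted p = 0.085). Both were above 0 on 18 of 24 arrays, and both were far below 0 on M1 replicate 2, at -0.93 and -0.72, where M1 replicates 1 and 3 had 0.79 and 0.79 for MRPL6 and 0.61 and 0.59 for MRPL33. In the small subunit MRP21, the counterpart of S21, had 0.24 ± 0.08 (adjusted p = 0.0541) and was above 0 on 21 of 24 arrays. MRPS9, the counterpart of S9, had 0.21 ± 0.07, and RSM23, which has no bacterial counterpart and is related to mammalian DAP3, had 0.18 ± 0.07 (adjusted p = 0.0718 and 0.0943). With the replicate block MRPL6, MRPL33, MRP21 and MRPS9 passed (adjusted p = 0.0172, 0.0107, 0.0157 and 0.0269 by limma), but that error leaves out the spread between slides. With slide as a random block MRPL16 was the 1 gene called, and these were not.

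At the other end, MRPL36, the counterpart of L31, had -0.25 ± 0.08 (adjusted p = 0.0513), MRPL4, the counterpart of L29 at the rim of the polypeptide exit tunnel, had -0.16 ± 0.10, and MRPL13, a mitochondrial addition, had -0.10 ± 0.06. In the small subunit RSM7, the counterpart of S7, had -0.16 ± 0.07, MRP4, the counterpart of S2, had -0.09 ± 0.06, and RSM27, a mitochondrial addition, had -0.05 ± 0.07. None of these 6 passed, though RSM7 did with the replicate block at -0.19 ± 0.06 (adjusted p = 0.038 by limma), whose error leaves out the spread between slides. After a loess on brightness MRPL36, MRPL13 and RSM27 were above 0, at 0.22, 0.15 and 0.009, and with the sign of slide 2 turned MRPL36 and MRPL13 were, at 0.21 and 0.011.

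**Figure D3:**
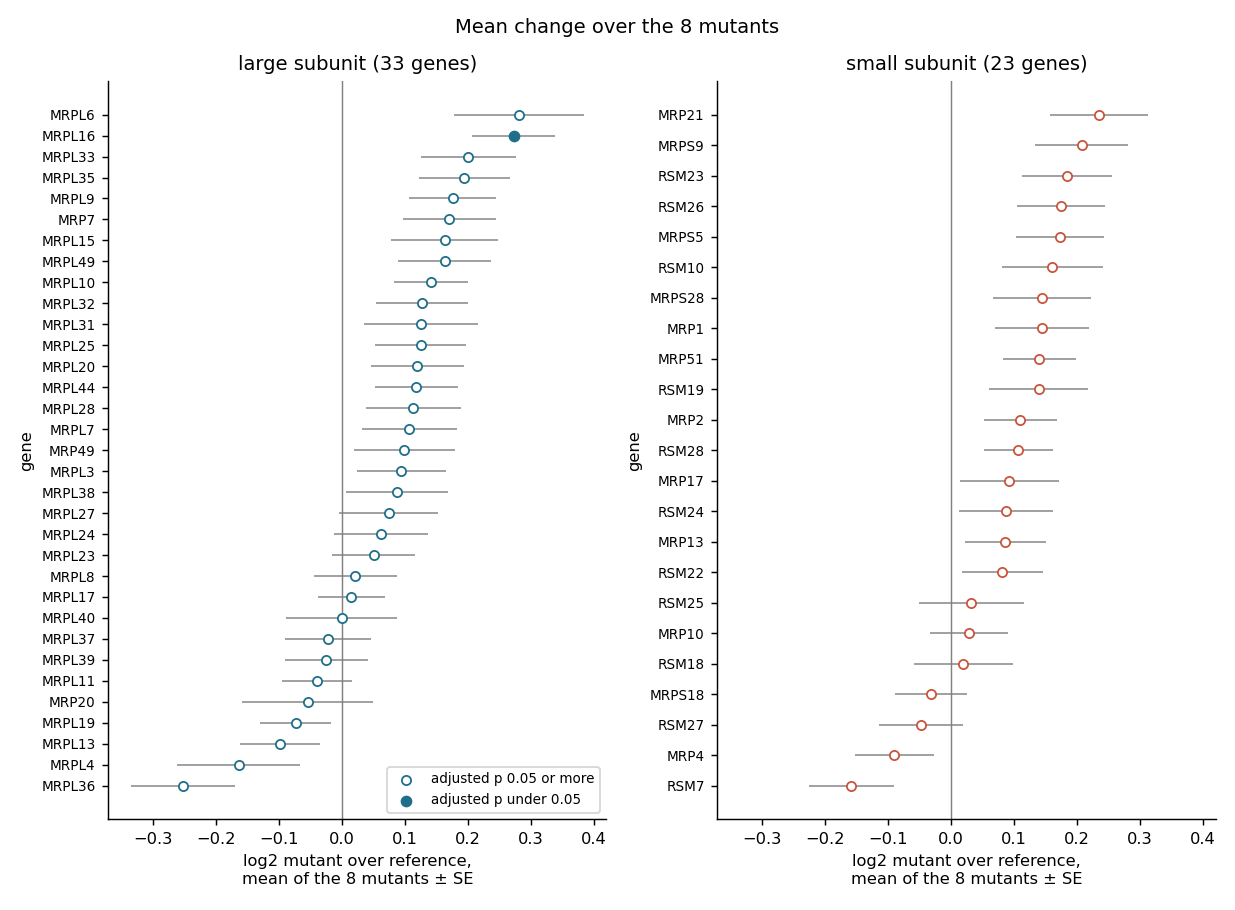
Points are the fitted log2 ratio of mutant over reference averaged over the 8 mutants, with the SE of the fit as bars, for the 33 large-subunit and 23 small-subunit genes. MRPL16 is the filled point, at 0.27 with an adjusted p of 0.00826, and most of the open points lie to the right of 0.

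The subunit genes with the same sign in all 8 mutants are given here, and the share of all genes with 1 sign was not counted. The mutants share slides and references, so their signs are not independent. MRPL10, MRPL16, MRPL32 and MRPL49 of the large subunit and MRP21, MRPS9 and RSM10 of the small subunit were above 0 throughout, and MRPL36 was below 0 throughout, though its mean was above 0 after the loess and with slide 2 turned. MRPL10 is the counterpart of L15, MRPL32 of L32, MRPL49 of L21 and RSM10 of S10. Their means over the 8 mutants were 0.14 ± 0.06 for MRPL10, 0.13 ± 0.07 for MRPL32, 0.16 ± 0.07 for MRPL49 and 0.16 ± 0.08 for RSM10. MRPL10 was above 0 on 21 of 24 arrays, and its 3 values below 0 were all on slide 2, at -0.05 in PR-438, -0.23 in PR-338 and -0.51 in M1. RSM22, which resembles methyltransferases and was counted with the small subunit, had 0.08 ± 0.06 (-0.10 with slide 2 turned), and MRP8, which belongs to neither subunit, had 0.06 ± 0.07.

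The mean over the 8 mutants was lower for genes with brighter spots. Across the 56 genes Pearson's r was -0.65 and Spearman's rho -0.64, as a description, since the genes share arrays. The 17 genes between the 25th and the 50th percentile of brightness had a median of 0.13 (all genes 0.05), the 25 genes between the 50th and the 75th had 0.11 (all genes 0.01), and the 12 genes between the 75th and the 90th had 0.02 (all genes -0.12). In these 3 ranges the median of the mitochondrial ribosomal genes was above that of all genes. MRPL36 was the brightest of the 56 and the 1 gene in the 90 to 100 range, at the 95.1st percentile, where the median of all genes was -0.56. The part of brightness in these values was not tested beyond the loess.

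**Figure D4:**
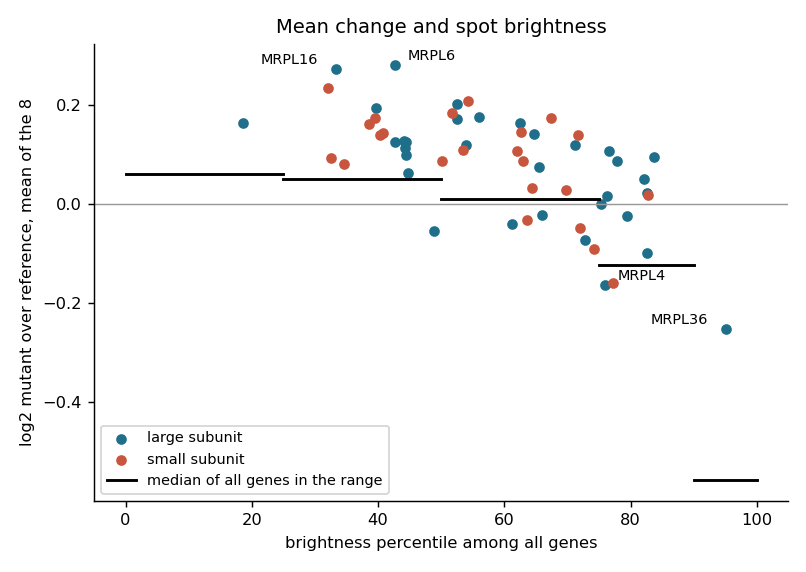
Each point is 1 gene, with its brightness percentile among all 4069 genes on the horizontal axis and its log2 ratio averaged over the 8 mutants on the vertical axis. Black lines give the median of all genes in each range of brightness, from 0.06 in the dimmest to -0.56 in the brightest, and MRPL36 lies lowest at -0.25.

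Within single mutants the large-subunit gene farthest from 0 for its error did not pass in any of the 8. In PG-353 it was MRPL20, a mitochondrial addition, with 0.69, 0.66 and 1.01 on replicates 1, 2 and 3 and a fitted value of 0.82 ± 0.20 (adjusted p = 0.396). Its probes disagreed on replicate 3, at 2.39 and -0.37, and on replicate 1, at 0.21 and 1.16, while on replicate 2 they read 0.51 and 0.82. In PG-132 it was MRPL15, the dimmest of the 56 genes, with 1.52, 0.53 and 0.03 (0.67 ± 0.23, adjusted p = 0.227), so that replicate 1 carried most of the value. In PG-259 it was MRPL33, with 1.32, 0.08 and 0.68 (0.60 ± 0.20, adjusted p = 0.355).

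In the DsRed-reference mutants PR-438 and PR-338 the gene was MRPL16 in each, with 0.50 ± 0.18 (adjusted p = 0.221) and 0.27 ± 0.18 (adjusted p = 0.623). PR-164 had MRPL9, the counterpart of L3, with 0.63, 0.07 and 0.80 (0.49 ± 0.19, adjusted p = 0.292). In M1 it was MRPL4, with -1.51, -0.92 and -0.49 and a fitted value of -0.95 ± 0.26 (adjusted p = 0.102). Both probes of MRPL4 were below 0 on all 3 arrays of M1, from -1.59 to -0.48. PY-231 had MRPL3, a mitochondrial addition, with -0.08, 0.54 and 0.77 (0.45 ± 0.19, adjusted p = 0.998).

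The small-subunit gene farthest from 0 for its error was MRP4 in M1. It had -1.11, -0.31 and -1.12 on replicates 1, 2 and 3, with both probes below 0 on each array, and a fitted value of -0.77 ± 0.17 (adjusted p = 0.0735). With the replicate block it passed, at -0.85 ± 0.17 (adjusted p = 0.0335), where 0.516% of all genes were called. Without M1 replicate 1 it had -0.72 (adjusted p = 0.215). Without replicate 2 of all mutants, MRP4 and RSM7 were called in M1, beside 2.61% of all genes. RSM7 had -0.73, -0.18 and -0.86 there.

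In the other mutants none of these genes passed. PY-231 had RSM23 with 0.98, 0.47 and 0.06 (0.49 ± 0.19), of which the first came from the array without gene signal. PR-438 had RSM19, the counterpart of S19, with 0.30, -0.16 and 1.31 (0.44 ± 0.21), and PR-338 had MRP1, a mitochondrial addition related to superoxide dismutases, with 0.92, -0.10 and 1.03 (0.56 ± 0.20). Both were below 0 on slide 2 alone. The high values of MRP1 rest on 1 probe, at 1.86 against -0.03 on replicate 1 and 1.79 against 0.27 on replicate 3, and that of RSM19 on replicate 3 came from probes at 1.98 and 0.64. PG-259 had MRP51 with 0.81, 0.13 and 0.56 (0.49 ± 0.16), and PG-353 had MRPS5, the counterpart of S5, with 0.52, 0.87 and -0.19 (0.48 ± 0.19, or -0.24 with slide 2 turned). PG-132 had MRP13 with 0.53, 0.62 and -0.33 (0.29 ± 0.17, or -0.17 with slide 2 turned), and PR-164 had MRP21 with 0.46, 0.10 and 0.79 (0.41 ± 0.21). Their adjusted p-values ran from 0.281 for MRP1 to 0.998 for RSM23.

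**Figure D5:**
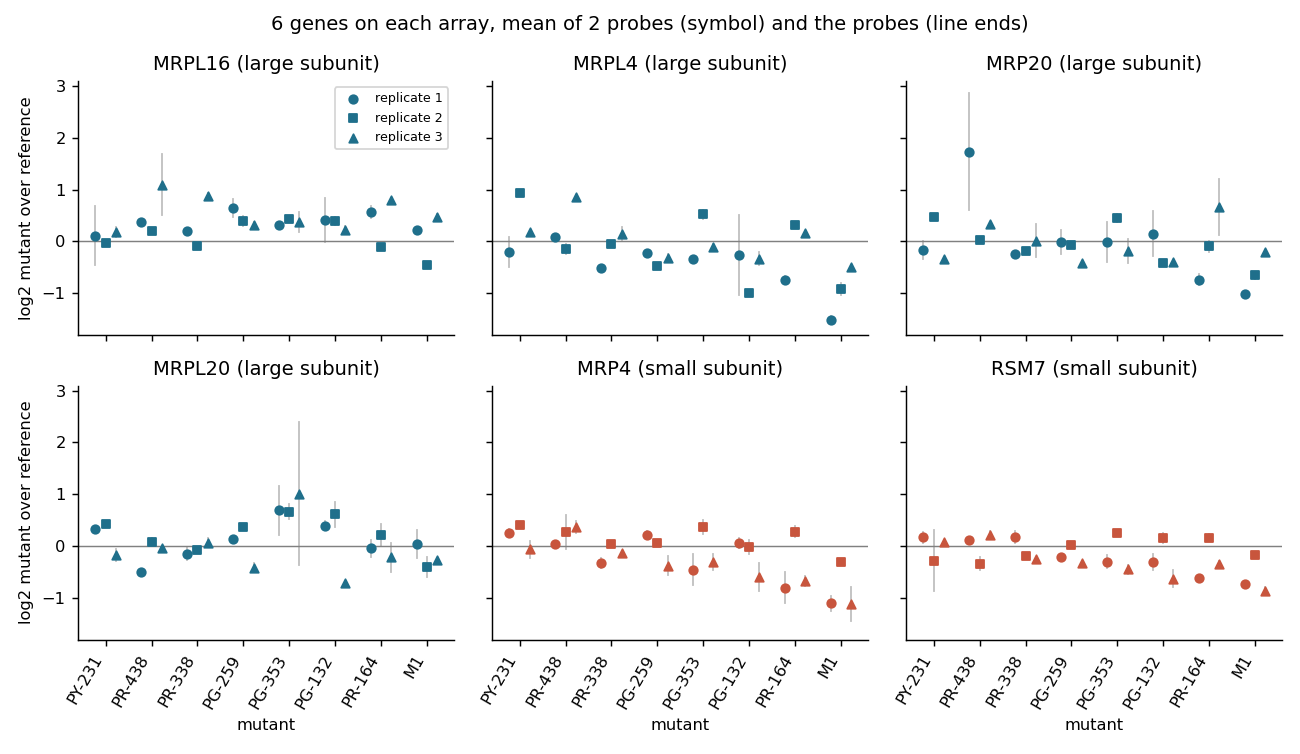
Symbols give the log2 ratio of mutant over reference on each array as the mean of 2 probes, with circles, squares and triangles for replicates 1, 2 and 3, and the ends of each grey line are the probes. MRPL16 lies above 0 on 20 of 24 arrays, MRPL4, MRP20, MRP4 and RSM7 lie below 0 on all 3 arrays of M1, and the probes of MRPL20 on PG-353 replicate 3 lie far apart.

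The genes differed in how far they strayed from the rest of the ribosome. The distance of a gene from the median of the other subunit genes on the same array had an SD over 23 arrays, PY-231 replicate 1 left out, of 0.10 for RSM28, the lowest. RSM28, a small-subunit protein, had values from -0.36 on M1 replicate 2 to 0.39 on PG-353 replicate 2, the arrays on which the whole group was lowest and highest. The highest SDs were 0.54 for MRPL4, 0.52 for MRP20 and 0.45 for MRP4. MRP20 is the counterpart of L23, which like L29 lies at the exit of the polypeptide tunnel. These 4 genes were named after their values were seen.

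MRPL4, MRP20 and MRP4 each had their lowest fitted value in M1, and in PR-438 their fitted values were 0.29 ± 0.26, 0.70 ± 0.28 and 0.30 ± 0.17. In PR-164 the fitted values were -0.07, -0.06 and -0.32. All 3 genes were low on PR-164 replicate 1, at -0.74, -0.73 and -0.80. On its replicate 3 MRPL4 and MRP20 read 0.16 and 0.66, and MRP4 read -0.67. For MRP20 the arrays of M1 read -1.004, -0.65 and -0.20 and those of PR-438 read 1.74, 0.02 and 0.33. The value of PR-438 replicate 1 rests on 1 probe at 2.87, while the other read 0.60. The arrays of PR-438 for MRP4 read 0.04, 0.27 and 0.37, where those of M1 were all below 0. In this pair of mutants 3 of the 57 genes had all arrays of 1 mutant on the other side of 0 from those of the other. Of all genes 5.71% did. For MRPL4 the arrays of PR-438 read 0.09, -0.15 and 0.87, and those of M1 read -1.51, -0.92 and -0.49.

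Tests between mutants called no gene. The moderated F test among the 4 mutants with the DsRed reference called 0 genes, members or others (0%), and 3 of the 57 had an unadjusted p under 0.05 against 5.58% of all genes. These were MRP20, MRPL4 and MRP4, whose largest differences between mutants were 1.32, 1.24 and 1.07, each with an adjusted p of 0.865 by limma. Among the 3 mutants with the GFP reference the F test also called 0 genes (0%), and MRPL20 was the 1 of the 57 with an unadjusted p under 0.05 (1.01% of all genes), with a largest difference of 0.76. The contrast of GFP-reference with DsRed-reference mutants called 0 genes (0%). There MRPL20 was higher with the GFP reference by 0.41, MRPL31 by 0.41 and MRP51 by 0.26, at unadjusted p under 0.05 where 6.07% of all genes were. Of the 56 genes 45 were above 0, with a median of 0.06, against 46.7% of all genes and a median of -0.02. Mutant and reference strain cannot be told apart in that contrast.

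Proteins inherited from bacteria and proteins added in mitochondria differed little in the mean of the 8 mutants. There the 20 large-subunit genes with a bacterial counterpart had a median of 0.08 and ran from -0.25 to 0.28. The 13 mitochondrial additions had a median of 0.11 and ran from -0.10 to 0.19. In the small subunit the 13 genes with a counterpart had a median of 0.14 and the 10 additions had 0.09. Most of the width of both subunits thus lay in the bacterial class, which held MRPL16, MRPL6, MRPL36, MRPL4, MRP20, MRP4 and RSM7. In PG-353 all 13 large-subunit additions were above 0 with a median of 0.25, and the 20 genes with a counterpart had a median of 0.20. The large-subunit additions were higher in PG-259 (0.15 against -0.001) and PG-132 (0.14 against -0.03). They were lower in PR-438 (0.003 against 0.11) and PR-338 (-0.07 against 0.06). In the contrast of GFP-reference with DsRed-reference mutants all 13 were above 0, with a median of 0.16. The genes with a counterpart had 12 of 20 and 0.04. These differences were not tested.

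The rest of the mitochondrial translation system had 5 genes called higher and 1 lower of 62 measured in the mean of the 8 mutants, where 2.06% of all genes were called higher and 11.2% lower, and none within a mutant. Of 6 measured ribosomal proteins with other kinds of names 1 fell, IMG1, the counterpart of L19, at -0.41 ± 0.10 (adjusted p = 0.00989), and the highest was NAM9, the counterpart of S4, at 0.09 ± 0.06. IMG1 had -0.05 after a loess on brightness and 0.017 with slide 2 turned (adjusted p = 0.93). Of 8 translation factors MRF1, the release factor, rose by 0.22 ± 0.07 (adjusted p = 0.0493, or 0.005 with slide 2 turned, adjusted p = 0.97), and the ends of the list were MEF2, an elongation-factor relative that acts in ribosome recycling, at 0.26 ± 0.10 and FMT1, the formyltransferase of the initiator tRNA, at -0.03 ± 0.14. None of 12 aminoacyl-tRNA synthetases passed, from NAM2 for leucine at -0.07 ± 0.09 to MSM1 for methionine at 0.35 ± 0.14. MSM1 was above 0 on 21 of 24 arrays, but 1 array stood far out. It read 3.31 on PG-132 replicate 3, against 0.21 and 0.28 on replicates 1 and 2.

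Of 17 translational activators and membrane anchors 3 rose. AEP1 and AEP2, which act on the mRNA of an ATP synthase subunit, rose by 0.27 ± 0.07 and 0.21 ± 0.06 (adjusted p = 0.0169 and 0.0308), and MBA1, which anchors the ribosome at the inner membrane, rose by 0.29 ± 0.09 (adjusted p = 0.0469). All 3 had an adjusted p above 0.05 after the loess on brightness, and with slide 2 turned AEP2 and MBA1 did, at 0.04 and 0.05. PET122, an activator of COX3 translation, was lowest at -0.51 ± 0.23, had 1.29 without replicate 2, and with slide 2 turned was called higher, at 1.80 (adjusted p = 2.6e-06). Of 9 genes of ribosome assembly and mitochondrial transcription MTF1, the specificity factor of the mitochondrial RNA polymerase, rose by 0.15 ± 0.05 (adjusted p = 0.0444) but had -0.05 without replicate 2, and with slide 2 turned it was called lower, at -0.20 (adjusted p = 0.0055). The polymerase RPO41 was highest at 0.24 ± 0.08 and SLS1 lowest at -0.29 ± 0.13. None of 10 regulators passed, from PUF3 at -0.34 ± 0.18 to HAP2, a subunit of the respiratory transcription factor, at 0.18 ± 0.09.

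By comparison the 130 cytosolic ribosomal protein genes had fitted medians of -0.29 in PY-231 to -1.10 in PR-164. In the mean of the 8 mutants their median was -0.71, and 85 were called lower, where 11.2% of all genes were. The fitted medians of mitochondrial and cytosolic ribosomal genes thus lay on opposite sides of 0 in 7 of the 8 mutants. This holds for the direction of slide 2 as read here and for its weight in the fit. On single arrays the cytosolic median changed sign with the slide, as in PG-353 at 0.43, -1.99 and 1.18, where the median of the 56 mitochondrial genes was 0.14, 0.44 and 0.07. The cytosolic median was likewise below 0 on slide 2 alone in PG-259 (0.38, -2.01 and 1.67), PG-132 (0.45, -3.07 and 1.97) and M1 (1.38, -2.71 and 0.17). In PY-231 it read -0.01, -1.47 and 2.10.

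In PR-438 the median of the 2 subunit genes that lie on chromosome VIII, MRPL6 and MRP4, was 0.46, against 0.11 for the other 54. MRPL6 had 0.51, 0.62 and 0.97 there (0.62 ± 0.28, adjusted p = 0.333). The difference was not tested, and 1 gene elsewhere, MRP20, had a higher fitted value than MRPL6. MRPL6 was also high in other mutants, with 0.52 in PR-164 and 0.42 in PG-353, and was above 0 in 7 of the 8. MRP4 had 0.27 in PY-231 and was above 0 in 3 of the 8.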

How the data were processed

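RNA of 8 adapted mutants and their reference strains was measured on 24 2-colour arrays, 8 on each of 3 slides, from 5 µg of labelled cDNA per the labels. Each sample is tied to a file in the GenePix result format per the labels. The deposited table holds linear ratios of the background-subtracted channels for 15744 probes, as read from the values, of which 2.14% to 8.28% per array are at or below 0. No source used here states the authors' scaling. Of the probes 8152 carry 1 gene symbol and 7592 none. The 4073 symbols were matched to the R64 catalogue (125 by synonym, 4 kept as in the table, 4 unmatched), which gave 4069 genes, 4036 of them on all arrays.

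Ratios above 0 were put on the log2 scale, centred on each array's median over named probes and averaged over a gene's probes. Genes with a value on fewer arrays were fitted on those. Limma 3.58.1 in R 4.3.3 fitted each mutant's mean and a dye term, and p-values were adjusted over all 4069 genes by Benjamini-Hochberg, with calls at 0.05. Tests against 0 do not include variation among reference cultures. The dye term takes up what the arrays of slide 2 share, and slide 2 weighs as much as slides 1 and 3 together in the mean over mutants. The median residual SD was 0.38. The fit was tested on simulated data. Brightness was rebuilt from each ratio as a quotient of whole numbers with a denominator up to 10000. Replicate numbers mark slides per the labels. Arrays of different mutants on 1 slide deviated together from their mutants' means, with a median correlation of 0.50 over 84 pairs, against -0.30 over 168 pairs from different slides. P-values measure the spread between these arrays, whose number limits precision.

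Genes named were those called in any comparison, the 3 highest and 3 lowest of a subunit in the mean of the 8 mutants, the one with the largest test statistic per mutant and subunit, those with 1 sign in all 8 mutants, and the called, highest and lowest genes of the other lists. Alternatives were the sign of slide 2, a replicate block, no dye term, a loess on brightness (span 0.3), no dim probes (lowest 0.2 of brightness), single replicates or arrays left out, 1 reference at a time, quantile normalization, probe medians, genes on all arrays, a floor for spots at or below 0, and another variance model. A loess with a replicate block, leaving out M1 replicate 1 and slide as a random block (consensus correlation 0.0602 beside the dye term) were added after seeing the data. The genes, lists and tests were chosen with earlier results of these data known. Promoter motifs and sequences were not analysed here. Tables and figures were made with Python 3.11.15, pandas, numpy, statsmodels and matplotlib.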

Additional observations from a re-analysis of the deposited data

Results flagged for a closer look

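In 7 cases every array of 1 mutant lay on the other side of 0 from every array of another mutant with the same reference, all among the mutants with the DsRed reference. Over the 6 pairs of these mutants this was 2.05% of the comparisons of the 57 genes, against 1.98% of those of all genes, so such cases were about as frequent among the mitochondrial ribosomal genes as among genes at large. MRP4 had a mean of 0.22 over the 3 arrays of PR-438 and of -0.85 over those of M1, MRP20 had 0.70 and -0.62, and MRPL38 had 0.12 and -0.46. MRPS5 had a mean of 0.12 over the arrays of PR-338 and of 0.23 over those of PR-164, against -0.26 over those of M1. RSM25 had 0.05 in PR-338 and -0.40 in M1, and RSM26 had -0.037 in PR-438 and 0.24 in PR-164. These differences were not tested pair by pair. The moderated F test among the 4 mutants gave MRP4 and MRP20 an adjusted p of 0.865. Of the 7 cases 6 involve M1, whose replicate 1 stood apart in its mating-type genes.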

How the results depend on the processing

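No setting changed the sign of MRPL16 in the mean of the 8 mutants, and it passed under all of them. The number of the 57 genes called in that mean, 1 as reported, was 11 with the sign of slide 2 turned (31.7% of all genes called), 11 with a replicate block (21.4%), 2 without a dye term (5.8%), 3 after a loess on brightness (8.68%), 3 without dim probes (15.8%), 6 with quantile normalization (12.1%), 10 with the loess and a replicate block together (17.3%), 1 with slide as a random block (7.15%), and 1 to 15 when a replicate or an array was left out, the 15 without replicate 2 (29.1%). In M1 the number, 0 as reported, was 7 with the sign of slide 2 turned (11.6%), 1 with the replicate block (0.516%) and 0 to 2 when a replicate was left out, the 2 without replicate 2 (2.61%). The replicate block changed no other call of a mitochondrial ribosomal gene within a mutant.

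Turning the sign of slide 2 gave subunit medians of -0.12 (large) and -0.068 (small) in PY-231, -0.072 and -0.15 in PG-353, -0.12 (small) in PG-132, 0.20 (large) in M1, and 0.011 and 0.022 in the mean of the 8 mutants. The loess moved the large-subunit median of PR-164 to 0.22, and quantile normalization moved that of the mean of the 8 mutants to 0.15, which ran from 0.069 to 0.14 with a replicate or array left out. The comparison of large with small subunit moved by less than its spread over arrays under every setting run for it.

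Directions turned as follows in the mean of the 8 mutants, and the cause was not tested. With the sign of slide 2 turned, MRPL36 had 0.21, MRPL13 0.011, RSM22 -0.10, IMG1 0.017, NAM9 -0.0079, FMT1 0.24, MEF2 -0.10, NAM2 0.0015, PET122 1.80, MTF1 -0.20, PUF3 0.095 and HAP2 -0.065, while MRPS5 in PG-353 had -0.24 and MRP13 in PG-132 had -0.17. After the loess MRPL36 had 0.22, MRPL13 0.15, RSM27 0.009 and PET122 0.10, and with the loess and a replicate block MRPL36 had 0.019, MRPL13 0.054, FMT1 0.051 and PET122 0.32. With a replicate block, and likewise without a dye term, FMT1 had 0.047 and PET122 0.088. RSM22 had -0.028 with a floor for spots at or below 0. With a replicate or array left out the range was -0.17 to 0.033 for RSM27, -0.020 to 0.12 for RSM22, -0.14 to 0.21 for FMT1, -0.57 to 1.29 for PET122 and -0.047 to 0.17 for MTF1. Probe medians equal the means for genes with 2 probes.

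The limits are those of 3 arrays per mutant, a slide 2 whose direction is not stated and whose dye effect the design cannot separate from the slide, 1 array without gene signal and another that stood apart in its mating-type genes. In the mean of the 8 mutants the changes of single genes were under 0.3, with SEs of 0.05 to 0.10. Within a mutant the SEs were 0.145 to 0.28, and the median residual SD of single arrays was 0.38 over all genes. A gene that did not pass is thus not shown to be unchanged.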
